A study of Arabidopsis thaliana with 24 samples.

Results

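A pair of single mutants of Arabidopsis thaliana were compared directly, seedlings with the pkl-1 allele against seedlings labelled pif4. The comparison used 6 of the 24 libraries of the series, 3 biological replicates of each mutant. It covered all 22130 genes with enough counts, of 33612 listed. Each library held messenger RNA, selected by its poly(A) tail, of whole 9-day-old seedlings. The labels place them in continuous white light at 28, written with an unclear unit and read here as degrees Celsius. The other groups of the same table were the wild type (WT) and the double mutant labelled pkl-1pif4, with 3 libraries each. They entered the model for the spread and are given beside the mutants as reference values. No agent or transgene is named in the labels. The pif4 allele is not named either, and each genotype is represented by seedlings of a given label, so other differences between these lines cannot be told apart from the mutations.

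PKL (PICKLE) encodes a chromatin remodeller of the CHD3 type, which is known for keeping embryo and seed genes silent once a seedling has germinated. PIF4 encodes a basic helix-loop-helix transcription factor. It binds short promoter elements, the G-box and related E-boxes, and drives auxin synthesis and the elongation of stems and petioles in warm or shaded plants, while active phytochrome has it degraded. Both proteins act on growth in light, and the direct comparison asks which transcripts differ between seedlings that carry either label.

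Total counts ran from 40168802 to 52980805 in the 6 libraries, and from 37762216 to 56492669 over all 12 of the model. The sum of the antenna and Rubisco genes, which mark leaf mesophyll, ran from 51190 to 61490 CPM in the 6 libraries (CPM, counts scaled to library size with TMM factors). Of the listed root markers, SCR, of the root endodermis, had 49.4 CPM in pkl and 51.8 in the pif4-labelled group. All listed root and root hair markers summed to 240.3 to 249.9 CPM in pkl and 164 to 169 in the pif4-labelled libraries. The amount of root in either group was not tested. The floral identity genes AP1, AP3 and AG had too few counts to be tested. In whole seedlings, fewer cells of a type and less RNA per cell cannot be told apart.

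Differences below are log2 values of pkl minus pif4-labelled, ± SE, and a positive value means higher in pkl. At an adjusted p under 0.05 (edgeR quasi-likelihood test with Benjamini-Hochberg adjustment over all 22130 genes, which gave every adjusted p below), 11807 genes differed, or 53.4%. Of these, 5979 were higher in pkl (27.0% of the genes tested) and 5828 were lower (26.3%). The balance changed with the size of the difference. Among the 1992 genes (9.0%) that also differed at least 2-fold, 1341 were higher in pkl (6.06%) and 651 lower (2.94%). Past 8-fold there were 252 higher and 68 lower. The median over all tested genes was 0.0035. Between replicates of a group the chi-square per gene was 1.69 to 2.09, on counts halved because a fragment may count as 2. This is above the noise of counting fragments alone. The p-values measure this spread between libraries, and how much of it is technical cannot be told. For 3211 genes the 95% interval of the difference lay within 0.2 of 0 on the log2 scale. The values of the 3 libraries of each mutant did not overlap for 12850 genes (58.1%), 29.2% higher in pkl and 28.8% lower. Restricting the test to genes with a mean of at least 5 CPM left 614 of 15316 genes at 2-fold, so many of the large differences were of weakly expressed genes.

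**Figure D1:**
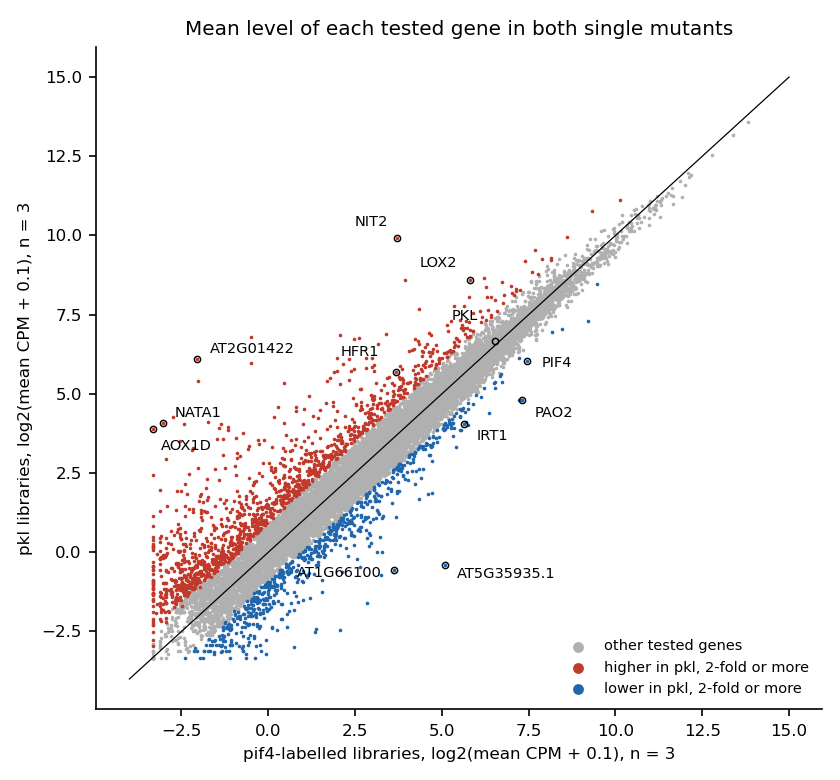
Mean CPM of each tested gene in the pif4-labelled libraries (x axis) and in pkl (y axis), both as log2(CPM + 0.1), with the diagonal of equal levels. Red points (1341) were higher and blue points (651) lower in pkl at 2-fold and adjusted p under 0.05, and named genes are circled. The points reach farther from the diagonal on the side of pkl, where 252 genes lay past 8-fold, against 68 on the other.

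Neither mutated gene was lost at the level of its transcript. PKL (AT2G25170; chromosome 2, 10713807 to 10723986) had 99.4, 107 and 101 CPM in the pkl libraries and 94.0, 93.4 and 87.9 in the pif4-labelled ones, a difference of 0.16 ± 0.04 (adjusted p = 6.89e-05), and WT had 97.3 ± 4.12 (mean ± SD, n = 3, as below). PIF4 (AT2G43010; chromosome 2, 17886427 to 17889050) had 68.4, 66.4 and 62.5 CPM in pkl against 178, 172 and 172 in the libraries labelled pif4. It was therefore lower in the pkl libraries, with a difference of -1.40 ± 0.03 (adjusted p = 2.37e-63), with WT between them at 100.4 ± 4.56. A higher PIF4 count in libraries labelled pif4 is not what a lost transcript would give, and a count cannot show whether the transcript makes protein. The pif4-labelled libraries are therefore named by their label throughout.

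The next tested gene along the chromosome differed more than PIF4 itself. PAO2, a polyamine oxidase gene (AT2G43020; chromosome 2, 17891503 to 17894635), had 30.5, 25.6 and 26.9 CPM in pkl and 161, 163 and 154 in the pif4-labelled libraries, a difference of -2.52 ± 0.06 (adjusted p = 1.94e-21). It was 24.4 ± 3.04 in WT and 122 ± 3.42 in the double mutant, so both groups labelled with pif4 stood high. AT2G43018 overlaps PAO2 and has equal counts in every library, so that the value belongs to both loci. The following gene, AT2G43030, differed by -0.42 ± 0.02, and IBH1, a growth-restraining bHLH gene further along, was higher in pkl by 0.83 ± 0.09. Near PKL, the gene that stood out was CCP3, with 7.38 ± 0.345 CPM in pkl and 1.97 ± 0.575 in the pif4-labelled libraries (1.91 ± 0.17), and its WT level was 1.73 ± 0.348.

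**Figure D2:**
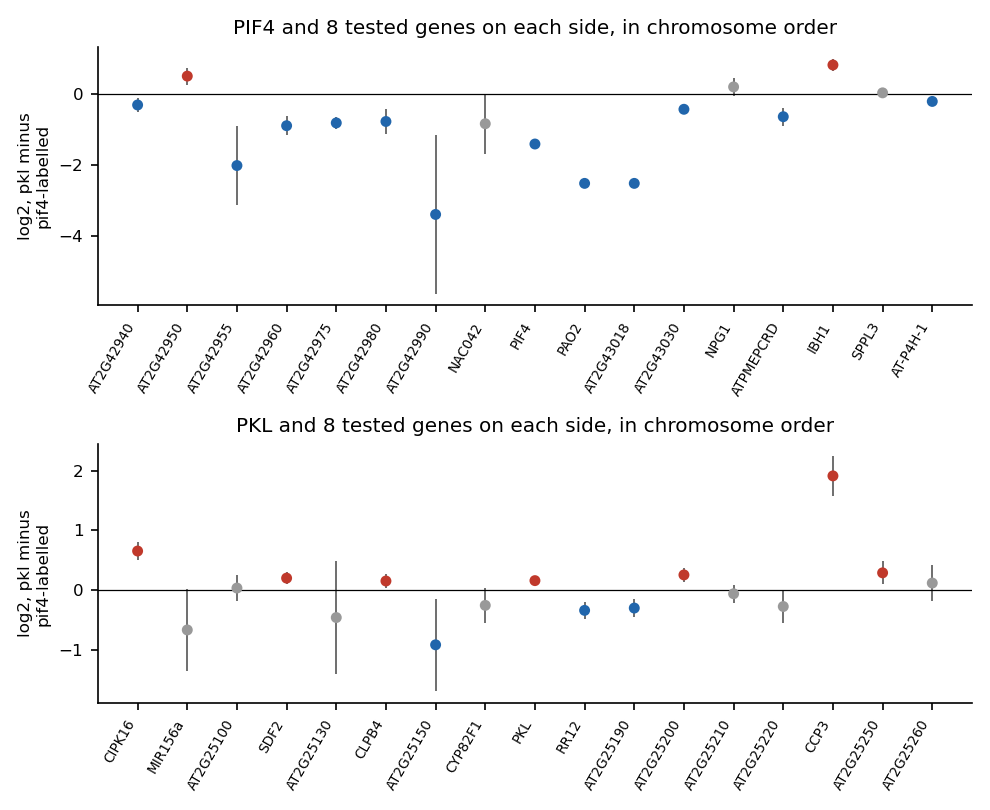
Log2 difference, pkl minus pif4-labelled, with its 95% interval, for PIF4 (top) and PKL (bottom) and the 8 tested genes on each side in chromosome order. Red is higher and blue lower in pkl at adjusted p under 0.05, and grey is not called. PAO2 and the overlapping AT2G43018 share a value of -2.52, beside PIF4 at -1.40.

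**Figure D3:**
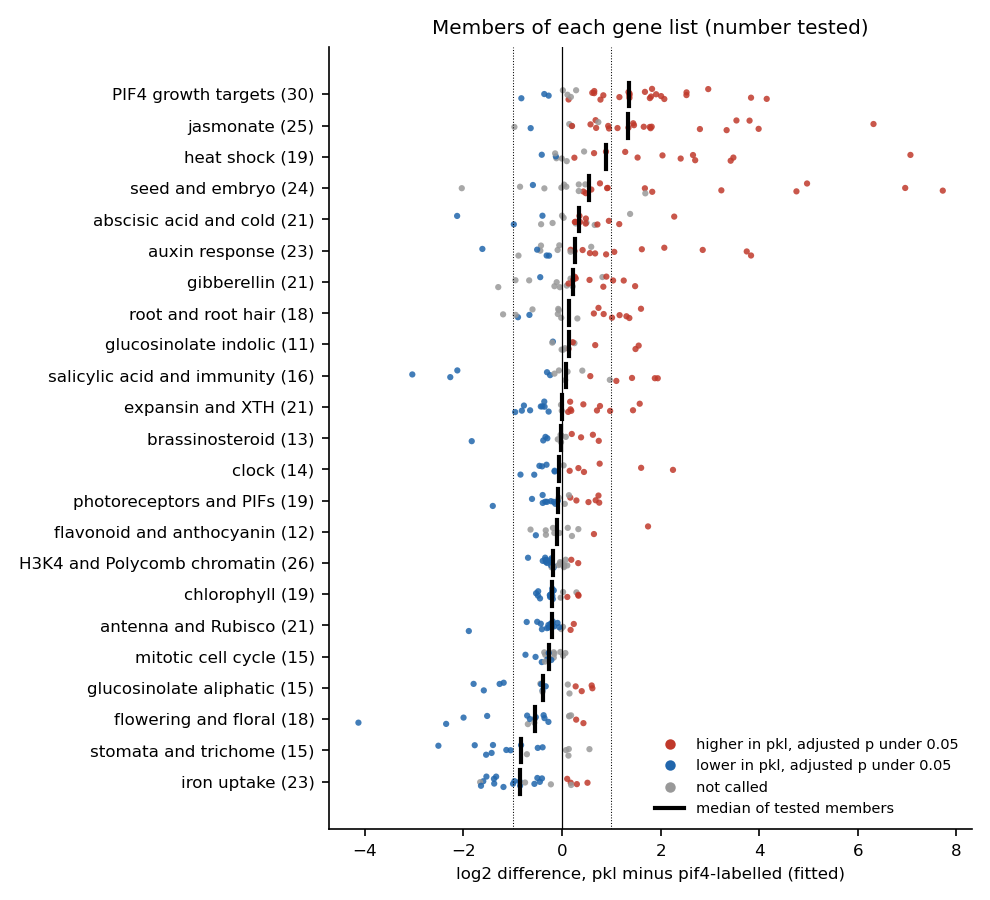
Fitted log2 difference of each tested member of 23 gene lists, ordered by the median (black bar), with dotted lines at 2-fold. PIF4 growth targets (median 1.36) and jasmonate genes (1.35) stand highest, and iron uptake (-0.85) and stomatal and trichome genes (-0.83) lowest. Values of the seed and heat shock genes beyond 6 rest on groups with almost no counts.

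Most of the genes known as targets of PIF4 in elongation were higher in pkl. All 30 listed growth targets were tested, 23 were higher in pkl and 3 lower, and 17 were higher at 2-fold against 0 lower (all genes: 6.06% and 2.94%). Their median difference was 1.36, beside 0.0035 over all genes. Summed, these genes made up 509 to 525 CPM in the pkl libraries and 300.3 to 306 in the pif4-labelled ones, and a mean of 603 in WT. The median difference from WT was -0.07 in pkl and -1.19 in the pif4-labelled libraries.

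HFR1, a bHLH protein that binds PIFs and restrains the shade response, had 50.8, 53.5 and 49.2 CPM in pkl and 12.6, 12.5 and 13.0 in the pif4-labelled libraries, a difference of 2.01 ± 0.06 (adjusted p = 7.17e-57). The groups were far apart, with all 3 pif4-labelled values near that of the double mutant (12.4 ± 0.609). ST2A, a sulfotransferase that removes hydroxylated jasmonate from the active pool, had 21.9, 24.0 and 20.5 CPM against 4.62, 3.62 and 3.23 (2.53 ± 0.10, adjusted p = 1.98e-45). ACS8, a synthase of the ethylene precursor, had 7.35, 7.76 and 8.09 CPM against 0.556, 0.253 and 0.496 (4.15 ± 0.23, adjusted p = 1.86e-32). ACS8 was above its WT level in pkl (3.56 ± 0.592 in WT), while ST2A and HFR1 were below theirs (31.6 and 85.2). The bHLH gene PIL1 differed by 2.97 ± 0.15 and the homeobox gene HB-2, a shade marker, by 1.78 ± 0.07. The auxin synthesis genes YUC8 and YUC9 differed by 1.83 ± 0.16 and 1.68 ± 0.22, whereas TAA1, which acts a step earlier, had 5.17 ± 0.307 and 5.11 ± 0.447 CPM (95% interval of the difference -0.25 to 0.28). SAUR19 to SAUR24, small growth genes that lie in a cluster, were each higher in pkl, from 1.16 to 2.52 on the log2 scale. They are near copies, so that their separate counts are uncertain.

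The 3 members lower in pkl were genes of growth as well. The bHLH gene PRE1 had 1.33 ± 0.294 CPM in pkl and 2.35 ± 0.125 in the pif4-labelled libraries (-0.82 ± 0.23), and the wall loosening genes EXPA8 and XTH15 differed by -0.36 ± 0.05 and -0.27 ± 0.06. All 3 were below their WT level in both mutants, with EXPA8 at 73.6 CPM in WT, against 27.4 for pkl and 35.2 for the pif4-labelled group.

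PIFs bind the G-box CACGTG and the E-box CACATG. The 250 bases before the annotated start were searched for both on either strand. Start sites and bases are those of RefSeq, assembly TAIR10.1. The E-box CACATG stood in 12 of the 30 growth target promoters (40.0%) and in 7 of the 17 that were higher in pkl at 2-fold (41.2%), against 11.1% of 27443 protein-coding promoters. For all tested genes the share was 11.4%, with 14.3% of those higher and 11.9% of those lower in pkl at 2-fold. The list holds known PIF4 targets and near copies, so its share is a description. The G-box stood in 2 of the 30 (6.67%), near the 6.49% of all promoters. The 4 promoters below are shown as examples with the E-box (ACS8 and YUC8), both elements (IAA19) and the G-box alone (FHL). They run 5′ to 3′ on the gene's strand, with the elements in capitals (CATGTG is CACATG read on the other strand). A match describes the letters of the window only.
ACS8 (chr4:17751829-17752078, plus strand), element from base -15:
ACS8: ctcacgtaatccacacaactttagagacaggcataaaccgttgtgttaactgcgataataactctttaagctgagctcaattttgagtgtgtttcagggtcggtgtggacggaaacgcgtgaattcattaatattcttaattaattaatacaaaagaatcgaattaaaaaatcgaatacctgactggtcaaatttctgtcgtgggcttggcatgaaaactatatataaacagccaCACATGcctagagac
YUC8 (chr4:14192319-14192568, plus strand), element from base -53:
YUC8: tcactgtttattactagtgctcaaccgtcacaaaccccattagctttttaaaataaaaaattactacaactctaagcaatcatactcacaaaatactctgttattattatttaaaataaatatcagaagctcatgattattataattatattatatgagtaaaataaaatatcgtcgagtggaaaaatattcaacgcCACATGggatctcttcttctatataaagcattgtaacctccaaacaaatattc
IAA19 (chr3:5263751-5264000, plus strand), elements from bases -177 and -70:
IAA19: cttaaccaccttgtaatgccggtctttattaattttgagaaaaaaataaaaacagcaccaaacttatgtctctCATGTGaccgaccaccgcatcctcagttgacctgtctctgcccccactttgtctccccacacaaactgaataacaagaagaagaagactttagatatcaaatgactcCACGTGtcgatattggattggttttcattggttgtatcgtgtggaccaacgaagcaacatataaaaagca
FHL (chr5:437115-437364, plus strand), elements from bases -129 and -75:
FHL: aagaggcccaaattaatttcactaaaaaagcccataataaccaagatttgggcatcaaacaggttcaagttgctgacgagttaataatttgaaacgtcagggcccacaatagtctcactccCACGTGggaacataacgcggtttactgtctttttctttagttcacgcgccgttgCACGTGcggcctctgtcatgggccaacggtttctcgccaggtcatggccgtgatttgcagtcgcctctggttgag
FHL, which helps carry phytochrome A into the nucleus, had 4.39 ± 0.574 CPM in pkl and 1.69 ± 0.352 in the pif4-labelled libraries (1.37 ± 0.19).

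Of 23 tested auxin response genes 12 were higher in pkl and 4 lower (27.0% and 26.3% of all genes), 6 and 1 at 2-fold (6.06% and 2.94%), with a median of 0.25. IAA19 and IAA29 are members of both this list and the growth targets. IAA29, an auxin-induced repressor, had 10, 11.2 and 10.3 CPM in pkl and 0.899, 0.737 and 0.546 in the pif4-labelled libraries (3.83 ± 0.17, adjusted p = 4.18e-39). IAA19, of the same family, differed by 2.08 ± 0.15. The conjugating enzyme genes GH3.3 and GH3.5, which tie auxin to amino acids, differed by 2.85 ± 0.12 and 1.62 ± 0.04, and GH3.3 stood above WT in pkl and below it in the pif4-labelled libraries (8.62, 18.8 and 2.60 CPM). Members lower in pkl included the auxin exporters PIN3 (-0.31 ± 0.03) and PIN7 (-0.26 ± 0.04), and LBD29, a regulator of lateral root formation (-1.61 ± 0.51). With only genes of at least 5 CPM the median was 0.50.

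Jasmonate genes were higher in pkl, with a median difference of 1.35. Jasmonate is made from plastid lipids by lipoxygenases, AOS and the AOC cyclases, and acts through MYC2 when the JAZ repressors are degraded. Of 28 listed genes 25 were tested, 20 were higher in pkl and 1 lower (27.0% and 26.3% of all genes). At 2-fold 14 were higher and 0 lower (6.06% and 2.94%). Summed, the listed genes made up 910 to 920.4 CPM in the pkl libraries, 298 to 309 in the pif4-labelled ones and a mean of 539 in WT. Of the synthesis genes, the lipoxygenase gene LOX2 had 386, 391 and 386 CPM in pkl and 59.7, 55.3 and 52.2 in the pif4-labelled libraries (2.80 ± 0.03, adjusted p = 4.16e-95). AOC2 had 75.3, 66.7 and 70.5 CPM against 6.85, 7.27 and 6.87 (3.34 ± 0.07, adjusted p = 3.62e-70). Both genes were above WT in pkl and below it in the pif4-labelled libraries (WT 132 and 14.0 CPM). AOS differed by 0.58 ± 0.05, and OPR3, a reductase gene of a later step, had 17.8 ± 0.508 and 16.1 ± 0.962 CPM (95% interval -0.01 to 0.30).

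Of the signalling genes, MYC2 differed by 0.68 ± 0.05, and the repressor genes JAZ1 and JAZ10 by 1.82 ± 0.08 and 1.80 ± 0.16. MYC2 stood above WT in both mutants, with 27.7 CPM in WT, against 59.1 for pkl and 36.9 for the pif4-labelled libraries. The oxygenase genes of the list did not all share an order. AT2G38240 ranged from 25.1 to 31.1 CPM in WT, with 10.3, 8.40 and 10.4 in the pkl libraries and 0.171, 0.0421 and 0.149 in the pif4-labelled ones (6.32 ± 0.22, adjusted p = 4.15e-48). JRG21, of the same enzyme class, had 57.9 ± 0.873, 22.6 ± 1.29 and 1.93 ± 0.486 CPM in WT, pkl and the pif4-labelled libraries (3.54 ± 0.10). Both were thus below WT in either mutant and lowest in the pif4-labelled libraries, whereas AT5G05600 was above WT in pkl (43.0, 60.9 and 4.36 CPM, 3.80 ± 0.08). The storage protein genes split. VSP2 was higher in pkl (1.44 ± 0.09) and VSP1, its near copy, was the member that was lower (-0.64 ± 0.19). On the log2(FPKM + 1) scale, which compresses weak genes, the median of the list was 0.69.

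Small heat shock protein genes were the clearest part of the heat shock list. These chaperones hold unfolded proteins and are switched on by heat shock factors. Of 20 listed genes 19 were tested, 12 were higher in pkl and 2 lower (27.0% and 26.3% of all genes). The counts at 2-fold were 9 and 0 (6.06% and 2.94%), and the median of the list was 0.89. HSP17.4 had 4.79, 4.66 and 4.46 CPM in pkl and 1.46, 0.927 and 0.993 in the pif4-labelled libraries (2.04 ± 0.17, adjusted p = 1.40e-20). HSP17.6A had 3.08 ± 0.678 against 0.283 ± 0.0229 CPM (3.42 ± 0.22), and AT1G53540, annotated as a chaperone of the same class, 2.68 ± 0.320 against 0.243 ± 0.0925 (3.48 ± 0.30). HSP21, of the plastid, had 0 counts in the pif4-labelled libraries and 0.359 ± 0.310 CPM in pkl, or at least 8.68-fold more (the bound sets the empty group at 6 counts over its 3 libraries, and covers counting error only). The pkl levels of these genes were close to those of WT, with 4.34 CPM in WT for HSP17.4 and 2.69 for HSP17.6A.

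The large chaperone genes differed little. HSP101 had 19.4 ± 1.31 and 18.1 ± 1.55 CPM (95% interval -0.05 to 0.24) and HSP90.1 differed by 0.25 ± 0.04. Of the regulators, DREB2A was higher in pkl by 1.28 ± 0.16, HSFA2 by 0.89 ± 0.22 and HSFB1 by 0.65 ± 0.05, while HSFA7A was lower (-0.41 ± 0.09). The list thus rests on weak genes: with a mean of at least 5 CPM the median was 0.11, and on log2(FPKM + 1) it was 0.55. The core of the heat shock element, GAANNTTC, was searched after the values were seen. It reads the same on both strands. It stood in 7 of the 20 promoters of the list (35.0%), against 9.55% of all promoters. The promoters of AT1G53540 (chr1:19980049-19980298, plus strand) and HSP17.4 (chr3:16984868-16985117, minus strand) are shown for it, with the core in capitals from base -53, and from bases -99 and -18:
AT1G53540: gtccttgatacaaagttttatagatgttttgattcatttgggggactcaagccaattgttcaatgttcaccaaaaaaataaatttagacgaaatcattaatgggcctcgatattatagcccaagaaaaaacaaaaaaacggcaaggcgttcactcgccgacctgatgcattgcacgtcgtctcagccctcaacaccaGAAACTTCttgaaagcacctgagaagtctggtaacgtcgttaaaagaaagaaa
HSP17.4: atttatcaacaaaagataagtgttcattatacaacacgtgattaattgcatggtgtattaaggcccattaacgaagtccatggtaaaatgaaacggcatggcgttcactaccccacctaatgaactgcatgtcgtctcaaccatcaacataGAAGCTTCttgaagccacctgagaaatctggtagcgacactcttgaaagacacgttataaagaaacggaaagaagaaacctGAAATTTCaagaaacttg

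In the other hormone lists the counts are set against 27.0% of all genes higher and 26.3% lower, and 6.06% and 2.94% at 2-fold. Of 21 tested gibberellin genes 10 were higher in pkl and 1 lower (3 and 0 at 2-fold, median 0.22). They held the synthesis gene KO (0.90 ± 0.05), the inactivating oxidase gene GA2OX6 (1.25 ± 0.19) and the DELLA repressor genes GAI (0.56 ± 0.04) and RGL3 (0.84 ± 0.11). The receptor gene GID1C was lower (-0.44 ± 0.07). Abscisic acid and cold genes were higher in 10 and lower in 3 of 21 tested cases, 2 and 1 of them at 2-fold, with a median of 0.35. The cold gene COR15A had 3.14 ± 0.335 against 0.644 ± 0.186 CPM (2.28 ± 0.26), and the phosphatase genes HAI1, ABI2 and ABI1, which restrain abscisic acid signalling, differed by 0.72 ± 0.08, 0.48 ± 0.10 and 0.37 ± 0.05. KIN1, another cold gene, was the member lower at 2-fold (0.0862 ± 0.0831 against 0.364 ± 0.115 CPM, -2.13 ± 0.64), and its call was lost without pkl replicate 1 (-1.46). CYP707A2, which breaks the hormone down, was lower in pkl (-0.98 ± 0.20). For brassinosteroid 4 were higher and 4 lower of 13 tested (median -0.02), near the shares of all genes. The synthesis gene DET2 was higher in pkl (0.75 ± 0.09) and BR6OX1 lower (-1.83 ± 0.28).

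Of 16 tested salicylic acid and immunity genes 5 were higher in pkl and 5 lower, near the 27.0% and 26.3% of all genes. At 2-fold 4 were higher and 3 lower (6.06% and 2.94% of all genes). The median was 0.09, or 0.32 without pif4-labelled replicate 1 and 0.017 without replicate 2. PR5, a defence protein gene, was higher in pkl (2.88 ± 0.228 against 0.745 ± 0.176 CPM, 1.94 ± 0.26), as was PAD3 of camalexin synthesis (1.42 ± 0.33). WRKY70, a transcription factor gene of this pathway, was lower (0.319 ± 0.118 against 1.56 ± 0.243 CPM, -2.27 ± 0.38), as was PBS3 of salicylic acid synthesis (-2.12 ± 0.57). Among the wall loosening expansins and xyloglucan enzymes 10 were higher and 9 lower of 21 (27.0% and 26.3% of all genes). The median of this list was -0.0046. The 9 lower genes were 7 expansins with XTH15 and XTH16. EXPA5 had 5.41 ± 0.838 against 10.5 ± 0.742 CPM (-0.95 ± 0.11) and EXPA4 22.6 ± 0.953 against 38.7 ± 1.79 (-0.77 ± 0.06). EXPA2, active in germinating seeds, was higher in pkl (1.58 ± 0.10) and highest in the double mutant (58.4 ± 1.39 CPM).

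Photosynthesis genes were slightly lower in pkl. Of 21 antenna and Rubisco small subunit genes 17 were lower and 2 higher (26.3% and 27.0% of all genes). At 2-fold 1 was lower and 0 higher (2.94% and 6.06%), and the median of the list was -0.21. Summed, the 21 genes gave 51190 to 52160 CPM in the pkl libraries, 60800 to 61490 in the pif4-labelled ones and a mean of 69920 in WT. Both mutants were thus below WT. The outlying member was LHCB1.4, of the antenna of photosystem II, with 157, 155 and 163 CPM in pkl and 595, 584 and 580.4 in the pif4-labelled libraries (-1.89 ± 0.02, adjusted p = 1.40e-95). The antenna gene LHCA1 of photosystem I differed by -0.50 ± 0.02 and RBCS1B by -0.72 ± 0.02, while LHCB3 had 1362 ± 7.38 and 1343 ± 20.4 CPM (95% interval -0.01 to 0.05). The 2 higher members, LHCB2.2 and LHCB2.3, differed by 0.17 ± 0.02 and 0.24 ± 0.02. The antenna genes are a family of similar copies, and their separate counts may be split by the counting. Chlorophyll genes followed with 13 lower and 3 higher of 19 (26.3% and 27.0% of all genes), with a median of -0.20 and none at 2-fold. PORC, which makes chlorophyllide in light, differed by -0.53 ± 0.04 and the methyltransferase gene CHLM by -0.49 ± 0.02. The genes higher in pkl included PPH and NYE1 (0.33 ± 0.04 and 0.33 ± 0.07), both of chlorophyll breakdown.

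Photoreceptor genes were split within each kind. Of 19 tested photoreceptor, PIF and related light signalling genes 6 were higher in pkl and 10 lower (27.0% and 26.3% of all genes), with a median of -0.08. The phytochrome genes PHYB, PHYD and PHYA were higher, by 0.75 ± 0.03, 0.74 ± 0.07 and 0.68 ± 0.02. PHYB had 164, 167 and 170.5 CPM in pkl and 100.1, 102 and 95.3 in the pif4-labelled libraries, with 149.7 ± 2.60 in WT and an adjusted p of 5.57e-42. PHYC was lower (-0.34 ± 0.05). Of the blue light receptors, PHOT1 and CRY2 were higher (0.54 ± 0.02 and 0.17 ± 0.03) and PHOT2 and CRY1 were lower (-0.61 ± 0.03 and -0.39 ± 0.03). The relatives of PIF4 differed little, with PIF5 at -0.08 ± 0.03, PIF1 at -0.30 ± 0.05, PIF7 at -0.39 ± 0.11 and PIF3 at 0.29 ± 0.06. The call of PIF5 was lost when library totals replaced the TMM factors.

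Of 14 clock genes 6 were higher and 7 lower (27.0% and 26.3% of all genes), with a median of -0.06. The morning genes LHY, CCA1 and RVE1 were lower in pkl (-0.56 ± 0.02, -0.31 ± 0.02 and -0.84 ± 0.02), and LHY had 578, 593 and 575 CPM against 857, 855 and 867. PRR7, another clock gene, was higher (0.45 ± 0.04). The evening complex genes split, with ELF4 higher (3.96 ± 0.282 against 1.31 ± 0.244 CPM, 1.6 ± 0.21) and ELF3 lower (-0.46 ± 0.04). LUX of this complex was slightly higher (0.16 ± 0.07), a call lost with DESeq2. The median of the clock list changed sign without pif4-labelled replicate 3 (0.029).

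Iron uptake genes were lower in pkl and formed the list with the lowest median, -0.85. Roots reduce ferric iron with FRO2 and import it with IRT1, under the bHLH regulators FRU and BHLH38, BHLH39, BHLH100 and BHLH101. Of 23 tested genes 15 were lower in pkl and 4 higher (26.3% and 27.0% of all genes). At 2-fold 7 were lower and 0 higher (2.94% and 6.06%). IRT1 had 15.8, 17.1 and 16.9 CPM in pkl and 53.4, 49.9 and 47.0 in the pif4-labelled libraries (-1.6 ± 0.07, adjusted p = 1.04e-39). FRO2 had 9.91, 10.7 and 9.51 against 27.1, 24.9 and 26.1 CPM (-1.38 ± 0.09, adjusted p = 7.42e-27). In pkl both were nearer to WT (14.6 and 6.96 CPM) than in the pif4-labelled libraries, and the double mutant stood below WT (3.35 and 4.08). The regulator genes were lower with them, with FRU at -0.86 ± 0.19, BHLH38 at -1.53 ± 0.18, BHLH39 at -0.85 ± 0.14 and BHLH100 at -1.34 ± 0.23. The hydroxylase gene CYP82C4 of the coumarins that mobilise iron differed by -1.64 ± 0.22, and F6H1 of the same route by -0.56 ± 0.15. The 4 members higher in pkl included PDR9, an exporter (0.52 ± 0.04), and FER1, an iron store (0.30 ± 0.03). The others were BTS, a sensor that has regulators degraded (0.18 ± 0.03), and OPT3, a phloem transporter (0.11 ± 0.03). Without pkl replicate 2 the median was -0.64, and with genes of at least 5 CPM it was -0.42.

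Root and root hair markers differed by kind in the same libraries. Of 19 listed markers 18 were tested, 8 were higher in pkl and 2 lower (27.0% and 26.3% of all genes). The counts at 2-fold were 5 and 0 (6.06% and 2.94%), and the median of the list was 0.15. The summed level of the listed markers was 240.3 to 249.9 CPM in pkl, 164 to 169 in the pif4-labelled libraries and 118 in WT. The 8 higher genes encode wall proteins and a regulator, most of them known from root hairs. The hair wall gene PRP3 had 68.7, 69.8 and 63.0 CPM in pkl and 29.7, 29.8 and 30.3 in the pif4-labelled libraries (1.17 ± 0.06, adjusted p = 7.29e-35), the expansin gene EXPA7 differed by 1.31 ± 0.11, and RSL4, a regulator of hair growth, by 1.37 ± 0.25. The endodermal genes SCR and CASP1 had intervals of -0.16 to 0.02 and -0.27 to 0.10, and SHR was lower in pkl (-0.66 ± 0.09). The stem cell genes WOX5, PLT1 and PLT2 were all under 0.5 CPM in both groups. Iron uptake genes thus stood lower in the group with the higher hair genes, and the part of root amount in either result was not tested. The median of the root list was 0.86 with only genes of at least 5 CPM, 0.26 without pif4-labelled replicate 2, 0.247 without pkl replicate 1 and 0.31 with halved counts.

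Stomatal genes were lower in pkl. SPCH, MUTE and FAMA are the bHLH regulators that take a leaf cell in turn through the stomatal lineage, and TMM, EPF1 and SDD1 act in the signalling that spaces stomata. Of 15 stomatal and trichome genes 10 were lower in pkl and 0 higher (26.3% and 27.0% of all genes). At 2-fold 7 were lower (2.94% of all genes), and the median of the list was -0.83. TMM had 5.58, 7.01 and 6.21 CPM in pkl and 12.3, 14.2 and 14.4 in the pif4-labelled libraries (-1.13 ± 0.10, adjusted p = 4.54e-18). SPCH had 1.22, 1.75 and 1.19 against 4.24, 2.63 and 4.07 CPM (-1.40 ± 0.22, adjusted p = 3.54e-08). The groups did not overlap for either gene, and the lowest pif4-labelled value of SPCH came closest to pkl. MUTE differed by -1.77 ± 0.45, SDD1 by -1.54 ± 0.20, EPF1 by -1.43 ± 0.32 and FAMA, of the last step, by -0.49 ± 0.08. The pif4-labelled levels were near WT, such as 15 CPM for TMM. TRY, a repressor of trichome fate, differed by -2.51 ± 0.38 and GL2 by -0.39 ± 0.07, while GL1 and GL3, which promote trichomes, had intervals of -0.45 to 0.72 and -0.34 to 1.46. On log2(FPKM + 1) the median of the list was -0.42, with genes of at least 5 CPM it was -0.48, and without pif4-labelled replicate 3 it was -0.59.

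Of 15 mitotic genes 6 were lower in pkl and 0 higher, against 26.3% and 27.0% of all genes, with none at 2-fold and a median of -0.27 (-0.18 without pif4-labelled replicate 1). CYCD3;1, a cyclin that drives cells into division, had 18.4 ± 2.19 CPM in pkl and 30.9 ± 0.296 in the pif4-labelled libraries (-0.74 ± 0.07; adjusted p = 4.39e-18). The mitotic cyclin gene CYCA1;1 differed by -0.54 ± 0.16. The calls of KNOLLE, CDC20.1, CDKB2;1 and CYCB1;4, the other 4, were each lost without some single library, with KNOLLE at -0.22 ± 0.09 in the whole set. The interval of CYCD3;2 was -0.11 to 0.04. The part of dividing cells in the stomatal result was not tested.

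Most of the flowering genes that differed were lower in pkl. Of 25 listed genes 18 had enough counts, 10 were lower in pkl and 2 higher (26.3% and 27.0% of all genes). The counts at 2-fold were 4 and 0 (2.94% and 6.06%), and the median of the list was -0.54. FLC, the floral repressor that Polycomb silences in the cold, had 2.28, 1.37 and 1.91 CPM in pkl and 7.98, 7.52 and 6.95 in the pif4-labelled libraries (-2.0 ± 0.16, adjusted p = 8.25e-21), on either side of WT (4.50 ± 0.430). SEP3, a cofactor of floral identity, had 1.51, 1.49 and 1.28 against 7.06, 7.08 and 7.79 CPM (-2.35 ± 0.18). SVP, a repressor of flowering, was lower in pkl (-0.65 ± 0.05), as were SPL3 and SPL5, which promote the adult phase (-0.71 ± 0.08 and -1.52 ± 0.38). FUL had 2 counts in the 3 pkl libraries and 0.299 ± 0.194 CPM in the pif4-labelled ones, a ratio of 20.8-fold (95% interval 3.32 to 860.1). SMZ, another repressor, was higher (0.43 ± 0.12). So was SOC1, the other higher member (0.29 ± 0.09), a call lost without pkl replicate 3. The median was -0.35 with genes of at least 5 CPM and -0.37 without pif4-labelled replicate 3.

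Most of the seed genes that differed did so at low levels. Of 27 listed seed and embryo genes 24 were tested, 13 were higher in pkl and 1 lower (27.0% and 26.3% of all genes). At 2-fold 7 were higher and 0 lower (6.06% and 2.94%). The median of the list was 0.54, also with the 2 genes at 0 counts set to their bound. Summed, the list made up 86.6 to 92.8 CPM in pkl and 72.5 to 75.1 in the pif4-labelled libraries. The means were 77.9 in WT and 4334 in the double mutant. The albumin gene SESA1 had 0.663, 0.331 and 0.744 CPM in the pkl libraries. In the pif4-labelled group it had 0 counts, so pkl was at least 13.2-fold higher. SESA2 had 1.48 ± 0.254 CPM in pkl and 6 counts in the pif4-labelled libraries, a ratio of 33.2-fold (95% interval 11.1 to 165). SESA1 to SESA4 are tandem copies whose reads may be shared. OLEO1, which coats oil bodies, differed by 1.68 ± 0.44. ABI5 and ABI3, the transcription factor genes of seed maturation, differed by 0.93 ± 0.19 and 0.43 ± 0.11. CRA1, a globulin gene and the most abundant member, had 38.3 ± 2.2 and 38.8 ± 1.56 CPM (95% interval -0.08 to 0.05), and EM6, a late embryo gene, had an interval of -0.20 to 0.29. CRU3, another globulin gene, was the member lower in pkl (1.12 ± 0.280 against 1.70 ± 0.197 CPM), and its call was lost when only the 6 libraries were fitted. Both mutants were below the WT level of CRU3 (16.7 ± 0.731 CPM).

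Aliphatic glucosinolate genes, which make defence compounds from methionine, were divided. Of 15 tested, 7 were lower in pkl and 4 higher (26.3% and 27.0% of all genes). The counts at 2-fold were 4 and 0 (2.94% and 6.06%), and the median of the list was -0.40. The regulator MYB28 had 10.6, 8.81 and 8.77 CPM in pkl and 20.4, 23.9 and 23.9 in the pif4-labelled libraries (-1.26 ± 0.09, adjusted p = 5.24e-25), the latter near WT (19.8 ± 1.34). MYB29 had 1.99 ± 0.422 against 6.93 ± 0.573 CPM (-1.79 ± 0.15), with 11.2 ± 0.954 in WT. The synthesis genes MAM1 and CYP83A1 were closer, -0.40 ± 0.05 and -0.42 ± 0.05, and MAM1 had 103 CPM in WT, against 39.3 for pkl, 51.8 for the pif4-labelled libraries and 5.81 in the double mutant. BCAT4, of the first step, was higher in pkl (0.62 ± 0.07). The glycosyltransferase gene AT2G31790 stood out (17.3 ± 1.57 against 51.8 ± 1.19 CPM, -1.59 ± 0.06). In the indolic branch, made from tryptophan, 5 of 11 were higher and 1 lower (27.0% and 26.3% of all genes). The median of this branch was 0.13 (0.050 without pkl replicate 1, 0.081 without pkl replicate 2 and 0.053 with genes of at least 5 CPM). CYP81F2, which modifies the indole ring, differed by 1.55 ± 0.21 and CYP83B1 by 0.67 ± 0.04. CYP79B3, of the first indolic step, had an interval of -0.08 to 0.06. Of 17 flavonoid and anthocyanin genes 12 were tested, 2 were higher and 1 lower, below the 27.0% and 26.3% of all genes. Chalcone synthase (TT4) differed by 0.65 ± 0.05.

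Chromatin regulator genes differed by small amounts. Of 28 listed genes of H3K4 methylation, its removal, Polycomb and CHD remodelling, 26 were tested. In pkl 13 were lower and 2 higher (26.3% and 27.0% of all genes), and 0 reached 2-fold (median -0.17). PKR1, a CHD3 relative of PKL, had 87.7, 90.0 and 82.9 CPM in pkl and 145, 132 and 143 in the pif4-labelled libraries (-0.69 ± 0.04, adjusted p = 1.47e-34), against 128 ± 4.11 in WT. The Polycomb methyltransferase gene SWN was higher in pkl (0.33 ± 0.04), whereas CLF, another such gene, was slightly lower (-0.17 ± 0.05, a call lost without pkl replicate 1). The H3K27 demethylase genes REF6 and ELF6 differed by -0.31 ± 0.05 and -0.22 ± 0.04, the H3K4 demethylase genes JMJ14 and JMJ18 by -0.34 ± 0.05 and -0.33 ± 0.08, and the methyltransferase gene ATXR7 by -0.34 ± 0.06. ATXR3, the main H3K4 trimethylation enzyme, had 83.3 ± 3.22 and 85.5 ± 1.96 CPM (95% interval -0.11 to 0.03). DML1, a DNA demethylase gene outside the lists that was singled out after its values were seen, had 3.19, 3.76 and 3.37 CPM in pkl and 22.2, 25.6 and 24.9 in the pif4-labelled libraries (-2.82 ± 0.10, adjusted p = 3.52e-49), with 27.1 ± 1.19 in WT and 2.55 ± 0.196 in the double mutant.

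Loci whose identifiers end in a dot and a number passed the 2-fold threshold more often than protein-coding genes. At adjusted p alone, 83 of 238 were higher in pkl and 40 lower, against 5761 and 5609 of 21128 protein-coding genes. At 2-fold, 53 of 238 tested were higher in pkl (22.3%) and 19 lower (7.98%), against 5.87% and 2.86% of protein-coding genes. Pseudogenes had 14.0% higher and 6.43% lower of 171, and 197 loci without a dot that the RefSeq table does not hold had 2.03% and 1.015%. These shares were not tested. Near copies among such loci may share reads. Several stood side by side. On chromosome 4, 8 neighbouring tested loci between 2184059 and 2214394, from AT4G04408 to AT4G04440.1, were all higher in pkl at 2-fold. AT4G04410.1 had 389 ± 3.01 CPM in pkl and 15.3 ± 1.17 in the pif4-labelled libraries, 34.2 ± 0.809 in WT and 290.4 ± 2.36 in the double mutant (4.67 ± 0.04, adjusted p = 1.95e-111). Runs of at least 4 neighbours past 2-fold in the same direction were looked for after the values were seen, and all 7 found were higher in pkl. Single genes past 2-fold were also more often higher (6.06% of all tested genes) than lower (2.94%), and the number of runs was not tested. They included 6 neighbouring loci with the UGT73C glycosyltransferase genes (chromosome 2, 15410462 to 15425016) and 5 with the glutathione transferase genes GSTU1 to GSTU4 (chromosome 2, 12626536 to 12633805). GSTU4 had 11.9 ± 0.516 CPM in pkl and 0.307 ± 0.144 in the pif4-labelled libraries (5.24 ± 0.20), and GSTU1 18.1 ± 0.385 against 7.83 ± 0.820. Many loci of these runs are related copies or overlap, so they are not independent.

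**Figure D4:**
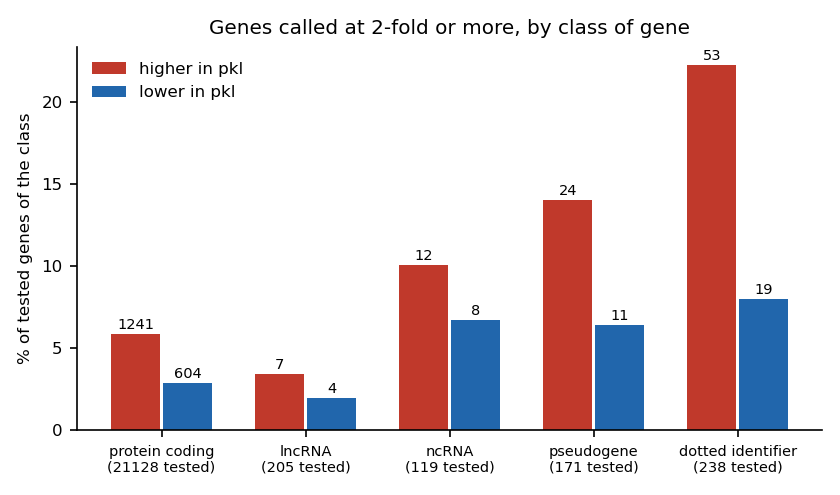
Share of the tested genes of each class that were higher (red) or lower (blue) in pkl at 2-fold and adjusted p under 0.05, with the number of genes above each bar. Loci with dotted identifiers had 22.3% higher and 7.98% lower, protein-coding genes 5.87% and 2.86%.

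Among genes with at least 5 CPM in the higher group and no overlap, the 10 largest differences upward in pkl were of genes nearly silent in the pif4-labelled libraries. AOX1D, a stress-induced alternative oxidase of mitochondria (AT1G32350; chromosome 1, 11666977 to 11668690), had 14.3, 15.9 and 14.1 CPM in pkl. It was without counts in the other mutant, so pkl was at least 330.0-fold higher, and WT had 2.45 ± 0.152. SUC7, of the sucrose transporter family, had 5.38 ± 0.816 CPM and 0 counts, at least 120.2-fold higher, and it has close copies in the genome. NATA1, an acetyltransferase of defence metabolism (AT2G39030; chromosome 2, 16298227 to 16299202), had 16.9, 16.6 and 16.5 CPM in pkl and 3 counts in the pif4-labelled libraries, a ratio of 748-fold (95% interval 155 to 4637). CSLG2, of the cellulose synthase-like family, had 7.53 ± 0.547 CPM and 4 counts, a ratio of 252-fold (95% interval 69.4 to 2087).

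NATA1 had 16.0 ± 1.6 CPM in WT. ELI3-2, annotated as a cinnamyl alcohol dehydrogenase, had 16.2 ± 0.648 CPM in WT, against 19.4 ± 0.685 for pkl and 0.0497 ± 0.0539 for the pif4-labelled libraries (8.46 ± 0.22). SAG13, a gene of senescence and oxidative stress, had 19.6 ± 0.375, 16.5 ± 0.673 and 0.0874 ± 0.0395 (7.49 ± 0.20). AT1G26380, annotated as a berberine-type oxidase, had 3.92 ± 0.383, 11.4 ± 0.450 and 0.0732 ± 0.0204 (7.21 ± 0.26). NIT2, a nitrilase gene, was not named by the rule but chosen after its values were seen. It had 944, 958 and 974 CPM in pkl and 12.6, 13.1 and 13.1 in the pif4-labelled libraries (6.21 ± 0.03, adjusted p = 4.05e-130), with 498 ± 2.06 in WT and 130.1 ± 3.15 in the double mutant. NIT2 has neighbouring copies, and some of its reads may be theirs.

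The remaining 3 of the 10 largest differences upward were loci almost silent in WT and in the pif4-labelled libraries. The noncoding RNA gene AT2G01422 had 68.4 ± 2.51 CPM in pkl, 0.143 ± 0.0267 in the pif4-labelled libraries and 68.6 ± 1.51 in the double mutant (8.89 ± 0.12). AT3G01345 had 109.9 ± 0.458 against 0.615 ± 0.0918 CPM (7.49 ± 0.09), and AT4G29200, annotated as related to beta-galactosidase, 42.0 ± 1.13 against 0.144 ± 0.105 (8.12 ± 0.18).

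In the other direction, among genes with at least 5 CPM in the higher group and no overlap, the largest difference was of the locus AT5G35935.1, with 0.994, 0.450 and 0.512 CPM in pkl and 35.5, 33.2 and 32.6 in the pif4-labelled libraries (-5.63 ± 0.13, adjusted p = 3.97e-61). WT had 18.1 ± 1.83. AT5G37990, annotated as a methyltransferase, had 0.226 ± 0.0737 against 7.12 ± 0.301 CPM (-4.94 ± 0.26), with 0 CPM in the double mutant. The thionin gene AT1G66100, of a family of antimicrobial peptides, had 0.810, 0.379 and 0.535 against 13.0, 11.2 and 12.4 CPM (-4.36 ± 0.17, adjusted p = 7.45e-45), and WT had 13.0 ± 0.564. The cytochrome P450 gene AT1G66540 differed by -4.25 ± 0.20, the receptor-like protein gene RLP19 by -3.42 ± 0.17, the helicase gene MEE29 by -3.29 ± 0.22, the oxygenase gene AT3G46490 by -3.25 ± 0.19, AT5G42530 by -2.93 ± 0.22, the lipid-transfer type gene AT5G48490 by -2.88 ± 0.13 and the ferric reductase relative FRO5 by -2.83 ± 0.16. For AT1G66540, MEE29, AT5G48490 and FRO5 the pif4-labelled level was close to WT (7.75, 6.20, 27.2 and 7.82 CPM), and the pkl level was the low one.

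Some genes lay above WT in the pkl libraries and below it in the pif4-labelled ones, or the reverse. Besides AOX1D and SUC7, the gibberellin synthesis gene GA20OX5 had 0.323 ± 0.129 CPM in WT, 1.05 ± 0.324 in pkl and no counts in the other mutant (at least 23.1-fold higher in pkl). ASE3, of purine synthesis, had 0.0603 ± 0.104 and 2.13 ± 0.148 CPM and 0 counts, at least 48.0-fold higher in pkl. The WT libraries had 0.181, 0 and 0 CPM of ASE3, too little to show that the pif4-labelled libraries lay below WT. In reverse, AT5G33395.1 had 1.70 ± 0.213 CPM in WT, against 0.0829 ± 0.0538 for pkl and 4.09 ± 0.573 for the pif4-labelled libraries, and the pseudogene AT1G28620 had 1.25 ± 0.453, 0.0884 ± 0.0623 and 2.49 ± 0.264. AT3G53250, a small auxin-induced gene of the SAUR family, had 0.569 ± 0.259, 0.133 ± 0.0359 and 1.22 ± 0.212.

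Other genes stood far from WT and alike in both mutants. BGLU35, a myrosinase that cleaves glucosinolates, had 14.5, 14.3 and 14.9 CPM in pkl and 12.7, 15.1 and 13.4 in the pif4-labelled libraries, against 2.38 ± 0.282 in WT, and the 95% interval of the direct difference was -0.08 to 0.27. GolS2, of raffinose synthesis under drought, was low in both, with 3.17 ± 0.554 and 2.77 ± 0.0901 CPM against 18.5 ± 0.847 in WT (interval -0.07 to 0.48). AT3G02480, annotated as a late embryo type protein, had 19.6 ± 0.845 and 20.6 ± 0.949 against 4.43 ± 0.941 (interval -0.18 to 0.05), and 172 ± 4.47 in the double mutant. The lipid transfer gene LTP3 had 15.2 ± 1.86 and 13.4 ± 0.604 CPM (interval -0.01 to 0.38), and a call of higher in pkl without pkl replicate 3. ATCSLB05, of the cellulose synthase-like family, had an interval of -0.09 to 0.45, and AT5G05965, whose reads overlap those of AT5G05960, -0.39 to 0.40. These genes were chosen for standing far from WT and alike in both mutants, so that their likeness is a description.

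**Figure D5:**
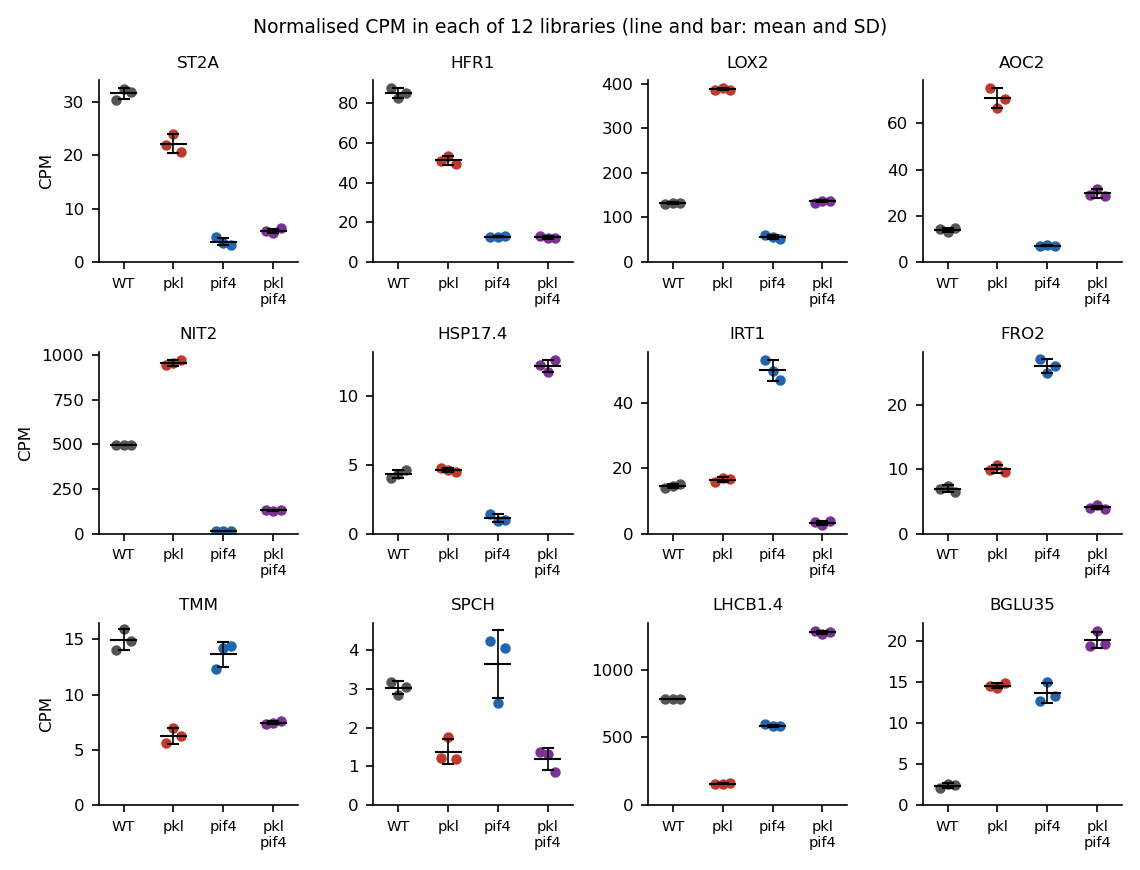
Normalised CPM of 12 genes in each of the 12 libraries, by genotype, with the mean as a line and the SD as a bar, each axis from 0. ST2A, HFR1, LOX2, AOC2, NIT2 and HSP17.4 were lower in the pif4-labelled libraries than in pkl, IRT1, FRO2, TMM, SPCH and LHCB1.4 were higher there, and BGLU35 was alike in both mutants and above WT.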

How the data were processed

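Whole seedlings gave total RNA whose poly(A) fraction went into TruSeq libraries for a HiSeq Xten instrument, per the labels' protocols. The submitters' processing notes name fastp, HISAT2 2.1.0, SAMtools 1.6 and the genome build TAIR10. Which program counted the reads, and whether it used strand, is not given in the sources used here, so reads of overlapping or antisense genes cannot be told apart. The authors deposited raw counts per gene, which were tested, and FPKM, which served as an alternative only. The FPKM equalled the counts divided by the table's gene length and column totals, with a largest difference of 4.35e-07.

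The tables given for the red-light samples held the same values as those named for 28 (0 of 403344 counts and 0 of 403344 FPKM values differed). Only the tables named for 28 were used, and the growth condition rests on their column names. The 12 red-light samples were not analysed here.

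Genes were kept by edgeR 4.0.16 filterByExpr (minimum count 10, minimum total 15), which left 22130 of 33612, and 26722 had any count. A group means model over all 12 libraries with TMM factors gave the contrast of pkl minus pif4-labelled by the robust quasi-likelihood test, two-sided (R 4.3.3). The SE is the size of the difference divided by the root of the F statistic, and intervals use the matching t quantile. Low counts were mostly even (70.9% to 74.3% of counts from 1 to 8 per library) and counts over 100 were not (49.4% to 50.9%), so a fragment may count as 2. The floor was therefore 3 fragments, or 6 counts over the 3 libraries of a group. Against 0 counts a fold is a lower bound at that floor, and against 1 to 6 counts it is a ratio with an exact 95% binomial interval. Bounds and intervals cover counting error only. Gene names are those of the RefSeq table (TAIR10.1) and positions are those of the count table, where 84.5% of exons had the same ends in TAIR10.1. The counts of 91 tested genes equalled those of another gene in all 12 libraries. The promoter window was set at 250 bases before the start, without transcribed sequence, after the reference was seen.

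The members and the 23 lists were chosen with earlier results of these data known. Genes were named by rule: PKL, PIF4 and PAO2, the 10 largest differences each way with no overlap and at least 5 CPM in the higher group, up to 4 members each way per list with at least 1 CPM, members against the sign of their list, and up to 6 alike or opposite against WT. Some genes that met this rule are left out of the text, among them members against the sign of their list, such as HSP70 and SOT17. Members named beyond this rule were chosen for their role after values were seen. The statistics were tested on simulated data. Alternatives were RLE factors, library totals, other filters, DESeq2 1.42.0, limma-trend 3.58.1, the 6 libraries alone, halved counts, FPKM, a replicate block and each library left out. Samples with the same replicate number did not deviate together, and the numbers were not taken as pairs. The chi-square per gene between replicates of a group, on halved counts, was 1.69 to 2.09 and alike in all pairs compared. Every library was counted as its own sample because the labels call them biological replicates, which these values cannot show. A member of the auxin list is not reported here by name.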

Additional observations from a re-analysis of the deposited data

How the results depend on the processing

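The count of genes called was 11807 and ran from 9381 to 11906 over the alternatives that keep all replicates, and from 10805 to 11049 without each of the 6 libraries in turn. Higher genes ran from 5465 to 5568 and lower genes from 5340 to 5511 without a library. At 2-fold the range without a library was 1948 to 2016 (1312 to 1363 higher, 636 to 678 lower). A mean of at least 5 CPM moved this count by over 1.5 times, to 614 of 15316 genes tested (439 higher, 175 lower), because fewer genes were tested and weak genes held many of the large differences. With library totals 6559 genes were higher and 5262 lower, and the median over all genes was 0.034. With the replicate number as a block, 11740 genes were called and 1967 at 2-fold. The correlation of same-numbered samples was 0.0082, -0.0058 and -0.0058, and that of differently numbered ones ran from -0.028 to 0.033. No pairing was seen, though a weak one could be hidden by counting noise. Of the 471 genes followed through the settings, none changed its sign while called. List medians near 0 did: salicylic acid (-0.10) and flavonoid (0.21) with at least 5 CPM, clock (0.03) without pif4-labelled replicate 3, flavonoid (0.01) without pkl replicate 1, and the brassinosteroid and wall lists, which stayed near 0. Leaving out a library ended between 7 and 18 of their calls, and DESeq2 ended 4. Genes with few counts limit the comparison, since their differences rest on the floor.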
